A study of Rattus norvegicus with 9 samples.

Results

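Neurotrophic factors are secreted proteins that keep neurons and glia alive and shape their growth, and 9 genes for such factors and their receptors were followed in injured rat spinal cord. The genes were taken by symbol from the deposited count table. Rows were found for 8 of the 9 among the 36051 genes of the table, namely the ligands Bdnf, Ntf3, Gdnf and Cntf and the receptors Ntrk2, Ntrk3, Ngfr and Ret. Gfra1 was not analysed here. A filter on low counts kept 7 of the 8, and Ntf3 did not pass it.

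The RNA came from the spinal cord of wild-type rats, 3 libraries in each of 3 groups, all taken on day 3. SCI_Veh rats received an impact contusion at the ninth thoracic segment and then saline, and SCI_ALA rats received the same contusion and then alpha-lipoic acid, a dithiol antioxidant. Sham rats had a sham operation only. Sex, strain, the drug's dose and whether libraries of a group came from separate animals are not given in the sources used here, so the p-values rest on a spread between libraries that may be technical. Libraries held 13857771 to 15736132 counts on genes, and mitochondrial transcripts took 6.40% to 15.7% of them. Levels of 1 gene across libraries are given as CPM (counts scaled to a fixed total) on TMM-scaled library sizes, and a gene was called changed where edgeR's quasi-likelihood test gave a Benjamini-Hochberg adjusted p below 0.05 over all 16678 genes tested.

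Mature neurotrophins signal through receptor tyrosine kinases of the Trk family, BDNF through TrkB (Ntrk2) and NT-3 (Ntf3) mainly through TrkC (Ntrk3). The receptor p75 (Ngfr), a member of the TNF receptor family, binds all neurotrophins, and with a sortilin-family coreceptor it binds their uncleaved precursors, which can trigger cell death. GDNF binds a membrane-anchored coreceptor, GFRA1, and signals through the kinase RET, on which motor neurons draw for survival. CNTF, a cytokine of the interleukin-6 family found in astrocytes and Schwann cells, signals through CNTFR, LIFR and gp130 (Il6st).

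The ligand Gdnf and the receptor Ngfr were higher on day 3 in both injured groups than in sham, and the kinases Ntrk2 and Ntrk3 were lower. Of the 7 genes tested, 2 rose and 2 fell in SCI_Veh against sham, where 1 of those that rose, Gdnf, had passed the count filter only through injured libraries. In that comparison 38% of all genes tested were called, 19.5% as higher and 18.5% as lower. The same 4 genes were called in SCI_ALA against sham, where 33.1% of all genes were called, 17.3% as higher and 15.8% as lower. Both counts stand beside a transcriptome in which these large shares moved. In each comparison with sham 4 of the 7 genes did not overlap, beside 49.7% (SCI_Veh) and 45.7% (SCI_ALA) of all genes tested. The comparisons with sham use the same 3 sham libraries and are not independent of each other. The median log2 fold change of the 7 genes was -0.19 in SCI_Veh and -0.12 in SCI_ALA against sham, and that of all genes tested was 0.00 and -0.01. In bulk tissue, fewer cells of a type and less RNA per cell cannot be told apart.

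**Figure D1:**
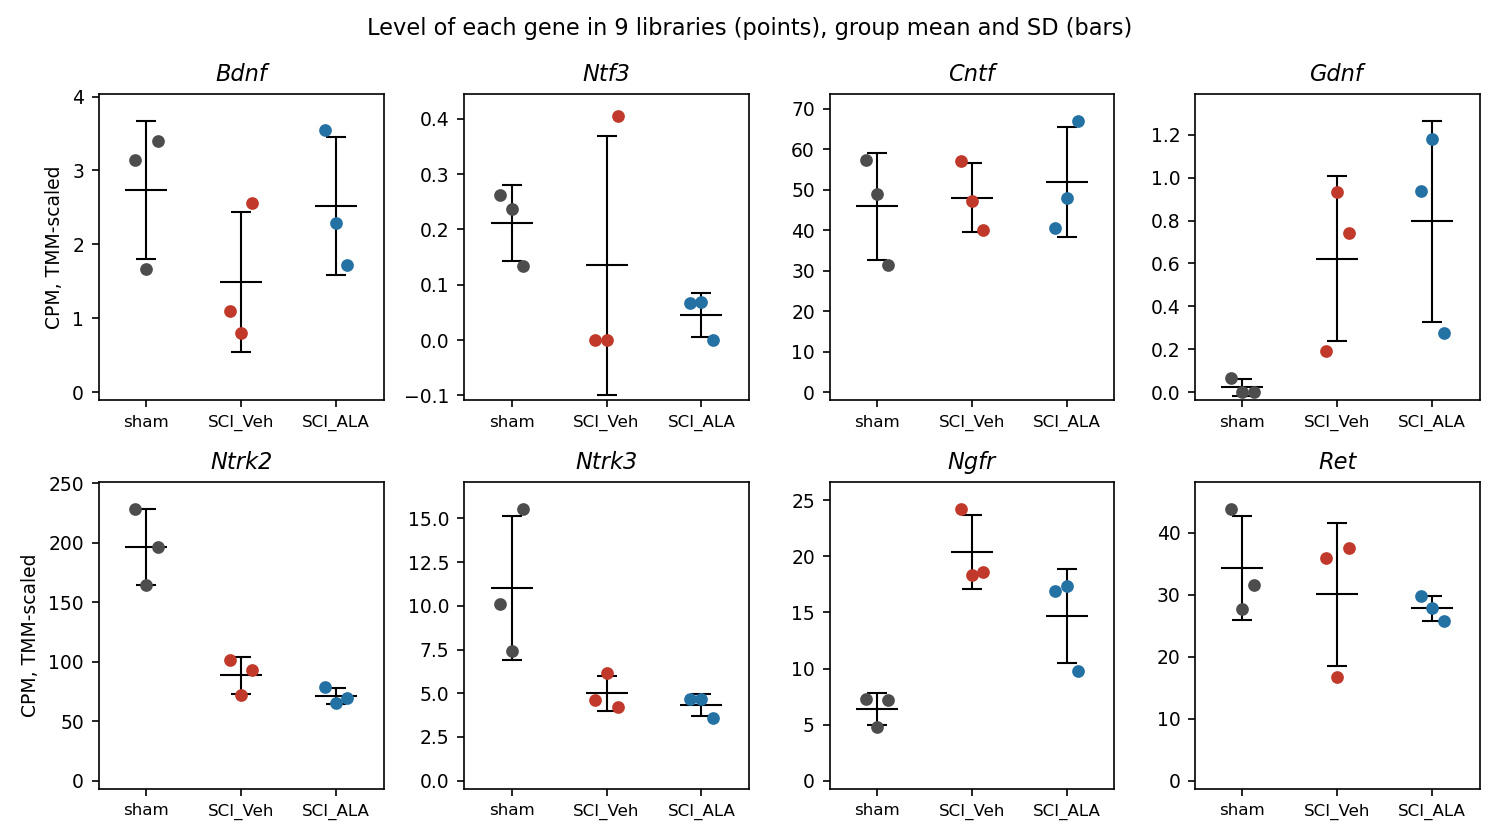
CPM on TMM-scaled library sizes (y axis, linear, a scale per gene) for the 8 genes in sham, SCI_Veh and SCI_ALA. Each point is a library and the bars give the mean and SD over 3 libraries. The sham points stand clear of all injured ones for Gdnf, Ntrk2, Ntrk3 and Ngfr. Of all genes tested, 49.7% in SCI_Veh and 45.7% in SCI_ALA likewise did not overlap sham.

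Gdnf, the ligand of the GFRA1-RET complex, lies on chromosome 2 at chr2:56887987-56910238 of Rnor_6.0, on the plus strand, as ENSRNOG00000012819. Its RefSeq upstream sequence is shown because, of the 4 genes called, Gdnf was the one matched in the promoter table, in which 6 of the 9 genes had an entry by symbol. The window holds the 250 bases before the transcript start in the build GRCr8, chr2:58621077-58621326 on the plus strand. Capitals mark a TATA box match and a cAMP response element half-site match read on the minus strand.
Gdnf upstream window: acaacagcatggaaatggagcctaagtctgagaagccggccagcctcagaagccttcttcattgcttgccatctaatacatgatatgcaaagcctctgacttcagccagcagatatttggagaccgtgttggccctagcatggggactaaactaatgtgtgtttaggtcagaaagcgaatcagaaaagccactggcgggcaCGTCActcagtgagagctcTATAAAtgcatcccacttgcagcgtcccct
The motifs searched, on both strands and with overlaps allowed, were the TATA box (TATAAA), the cAMP response element half-site (TGACG) and the full element (TGACGTCA), the AP-1 element (TGANTCA) and the Egr element (GCGTGGGCG). The first was present in 12.93% and the second in 18.22% of 33469 rat promoter windows of the same length, so neither match is rare. The full cAMP response element, the AP-1 element and the Egr element, in 1.587%, 6.34% and 0.4781% of windows, were not among the letters of this window. These matches are a description of the sequence, and no binding was measured.

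Gdnf was close to silent in sham and low but present after injury. Sham libraries held 1, 0 and 0 counts, SCI_Veh libraries 3, 14 and 11, and SCI_ALA libraries 14, 17 and 4. Every injured library exceeded every sham library. Per effective library size, the 28 counts of SCI_Veh against 1 in sham gave a ratio of 26.5, with an exact counting interval of 4.38 to 1083, and the 35 counts of SCI_ALA gave a ratio of 34.2 (interval 5.75 to 1389). These intervals cover counting error only. The quasi-likelihood test called Gdnf in SCI_Veh against sham (adjusted p = 0.0167) and in SCI_ALA against sham (adjusted p = 0.0121). Gdnf passed the count filter only through the injured groups. Without sham 1, which held the single sham count, sham had no Gdnf count. Setting 3 counts over the remaining sham libraries as a floor gave ratios of 5.69 in SCI_Veh and 7.35 in SCI_ALA. Error in the injured counts and the spread between libraries are left out of these ratios, so they are not lower bounds. With all libraries, the fitted interval of the fold against sham was 3.06 to 130 in SCI_Veh and 4.01 to 162 in SCI_ALA. In SCI_Veh against sham the call was lost without sham 3 (adjusted p = 0.0523), without SCI_Veh 2 (adjusted p = 0.0592) and with limma on log2(FPKM + 1) (adjusted p = 0.0602, or 0.0731 with every gene kept). It did not enter the test with a minimum of 50 counts in 3 libraries or with only the 2 groups compared, which left 3 genes called in each.

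Bdnf, the ligand of TrkB, was scarce and variable. The gene (ENSRNOG00000047466) lies on chromosome 3 at chr3:100768637-100819210 of Rnor_6.0, on the plus strand. Its CPM was 3.15, 1.66 and 3.40 in sham, 1.09, 0.80 and 2.56 in SCI_Veh, and 3.55, 2.29 and 1.72 in SCI_ALA. Values of the 3 groups overlapped. The log2 fold change in SCI_Veh against sham was -0.88 (SE 0.52), with a 95% interval of the fold of 0.246 to 1.2 and an adjusted p of 0.208. In SCI_ALA against sham the fold was between 0.423 and 2.0 (95% interval, adjusted p = 0.880). Counts of 12 to 53 a library limited the precision.

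Cntf was the most abundant of the 8 transcripts per gene length and did not pass the test in any comparison. It lies on chromosome 1 at chr1:229599009-229601032, on the minus strand, as ENSRNOG00000012460. Its CPM was 57.4, 48.9 and 31.4 in sham, 57.1, 47.2 and 40.0 in SCI_Veh, and 40.7, 48.0 and 67.1 in SCI_ALA. The groups covered nearly the same range. The log2 fold change was 0.07 (SE 0.24) in SCI_Veh and 0.18 in SCI_ALA against sham, with adjusted p of 0.853 and 0.611. The 95% intervals of the fold, 0.724 to 1.52 and 0.782 to 1.64, leave out a change of 2-fold in either direction. The gene Zfp91 lies 1467 bases from Cntf on the same strand, and readthrough transcripts that join both are known in human. Zfp91 itself was lower, by a log2 fold change of -0.58 (SE 0.13, adjusted p = 0.0039) in SCI_Veh and -0.60 in SCI_ALA (adjusted p = 0.0041) against sham. Zfp91 was looked up for its position and was added after its counts were seen.

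Ntf3, the ligand of TrkC, had 17 counts in all 9 libraries together. It lies on the same chromosome as Ret, at chr4:158636884-158705886 on the minus strand, as ENSRNOG00000019716. There were 4, 3 and 2 in sham, 0, 0 and 6 in SCI_Veh, and 1, 1 and 0 in SCI_ALA. SCI_Veh 3 was the highest library of all, and the SCI_ALA libraries lay below the sham libraries by 1 to 4 counts. The ratio of SCI_Veh to sham was 0.63 with an exact counting interval of 0.18 to 1.98, and that of SCI_ALA to sham was 0.22 (interval 0.02 to 1.05). No difference was detectable at this depth.

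Ntrk2, which encodes TrkB and whose truncated form without the kinase is abundant in astrocytes, was the most strongly expressed receptor of the group. It lies on chromosome 17 at chr17:5933729-6244676 of Rnor_6.0, on the minus strand, as ENSRNOG00000018839. Its CPM was 228, 165 and 197 in sham, 102, 71.7 and 92.9 in SCI_Veh, and 78.5, 65.6 and 69.4 in SCI_ALA. All 6 injured libraries lay below the lowest sham library. Ntrk2 was 2.22-fold lower in SCI_Veh than in sham (log2 fold change -1.15, SE 0.18, adjusted p = 0.00039). It was 2.76-fold lower in SCI_ALA than in sham (log2 fold change -1.47, SE 0.18, adjusted p = 0.000104). Gene counts add the full-length and the truncated receptor together, so their proportions were not measured.

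Ntrk3, the gene for TrkC, fell by a like amount. It lies on chromosome 1 at chr1:139890560-140262503 of Rnor_6.0, on the minus strand, as ENSRNOG00000018674. Its CPM was 10.1, 7.44 and 15.5 in sham, 4.64, 6.14 and 4.18 in SCI_Veh, and 4.69, 4.65 and 3.57 in SCI_ALA. Sham libraries were all higher than injured ones, with sham 2 closest to them. Ntrk3 was 2.21-fold lower in SCI_Veh (log2 fold change -1.14, SE 0.31, adjusted p = 0.0135) and 2.56-fold lower in SCI_ALA (log2 fold change -1.36, SE 0.32, adjusted p = 0.00671) than in sham. The call in SCI_Veh was lost without sham 3 (log2 fold change -0.80, adjusted p = 0.0710), without SCI_Veh 1 (adjusted p = 0.0553) and without SCI_Veh 3 (adjusted p = 0.0578). Leaving out sham 3 thus left 2 of the 7 genes called in SCI_Veh against sham, Ntrk2 and Ngfr.

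Ngfr, the gene for p75, moved the other way. It lies on chromosome 10 at chr10:83389847-83408061 of Rnor_6.0, on the minus strand, as ENSRNOG00000005392. Its CPM was 7.28, 4.75 and 7.20 in sham, 24.2, 18.3 and 18.6 in SCI_Veh, and 16.9, 17.4 and 9.82 in SCI_ALA. The 3 groups formed separate ranges, SCI_Veh highest and sham lowest, with SCI_ALA 3 the nearest injured library to sham. In SCI_Veh its level was 3.17-fold that of sham (log2 fold change 1.66, SE 0.27, adjusted p = 0.000587). In SCI_ALA it was 2.29-fold that of sham (log2 fold change 1.19, SE 0.27, adjusted p = 0.00534). Both calls held under every alternative run.

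Ret, the kinase that signals for GDNF, did not pass the test. It lies on chromosome 4 at chr4:150202058-150244372 of Rnor_6.0, on the minus strand, as ENSRNOG00000014751. Its CPM was 43.8, 27.6 and 31.6 in sham, 36.0, 16.7 and 37.5 in SCI_Veh, and 29.7, 27.9 and 25.7 in SCI_ALA. Ranges overlapped, and SCI_Veh 2 was the lowest library. The log2 fold change was -0.19 (SE 0.28) in SCI_Veh and -0.31 in SCI_ALA against sham, with adjusted p of 0.612 and 0.425. The 95% intervals of the fold were 0.577 to 1.33 and 0.533 to 1.23.

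Levels of different genes were compared on the deposited FPKM, which divide by gene length. In sham the order from high to low was Cntf, Ntrk2, Ret, Ntrk3, Ngfr, Bdnf, Ntf3 and Gdnf. Cntf stood at 28.7 to 51.9 FPKM, Ntrk2 at 15.2 to 21.1 and Ret at 4.88 to 7.76. The order of Cntf and Ntrk2 rests on annotated lengths of 1094 bases for Cntf and 10685 for Ntrk2. In counts summed over the 9 libraries Ntrk2 was higher, at 15677 against 6425. Ntrk3 at 2.40 to 5.08 FPKM overlapped Ret, and Ngfr lay below it at 1.44 to 2.21. Bdnf at 0.27 to 0.56 FPKM was the highest of the 3 scarce ligands, and Ntf3 at 0.085 to 0.166 overlapped Gdnf, which was listed at 0 in 2 sham libraries and at 0.0927 in the other.

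After injury the order changed. Ngfr, at 5.58 to 7.25 FPKM in SCI_Veh and 2.99 to 5.26 in SCI_ALA, was above Ntrk3 (1.34 to 2.0 and 1.16 to 1.51) in all 6 injured libraries. Gdnf, at 0.269 to 1.33 and 0.389 to 1.66 FPKM, was above Bdnf (0.13 to 0.41 and 0.28 to 0.58) in the same 6 libraries. The order of Gdnf and Bdnf rests on annotated lengths of 700 bases for Gdnf and 6068 for Bdnf. In summed counts Bdnf was higher, at 67 against 28 in SCI_Veh and 111 against 35 in SCI_ALA. SCI_Veh 2 held 12 Bdnf and 14 Gdnf counts. The ratio of Ntrk2 to Ngfr in FPKM was 9.55, 10.6 and 8.33 in sham, 1.28, 1.19 and 1.52 in SCI_Veh, and 1.42, 1.15 and 2.15 in SCI_ALA. Every injured library had a lower ratio than every sham library. This follows from the separate ranges of both genes and is not a further result. Ntrk2 stayed above Ngfr in all 9 libraries. The ratio of Ntrk2 to Ntrk3 overlapped between groups, at 3.63 to 6.46 in sham, 3.34 to 6.35 in SCI_Veh and 4.03 to 5.56 in SCI_ALA.

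**Figure D2:**
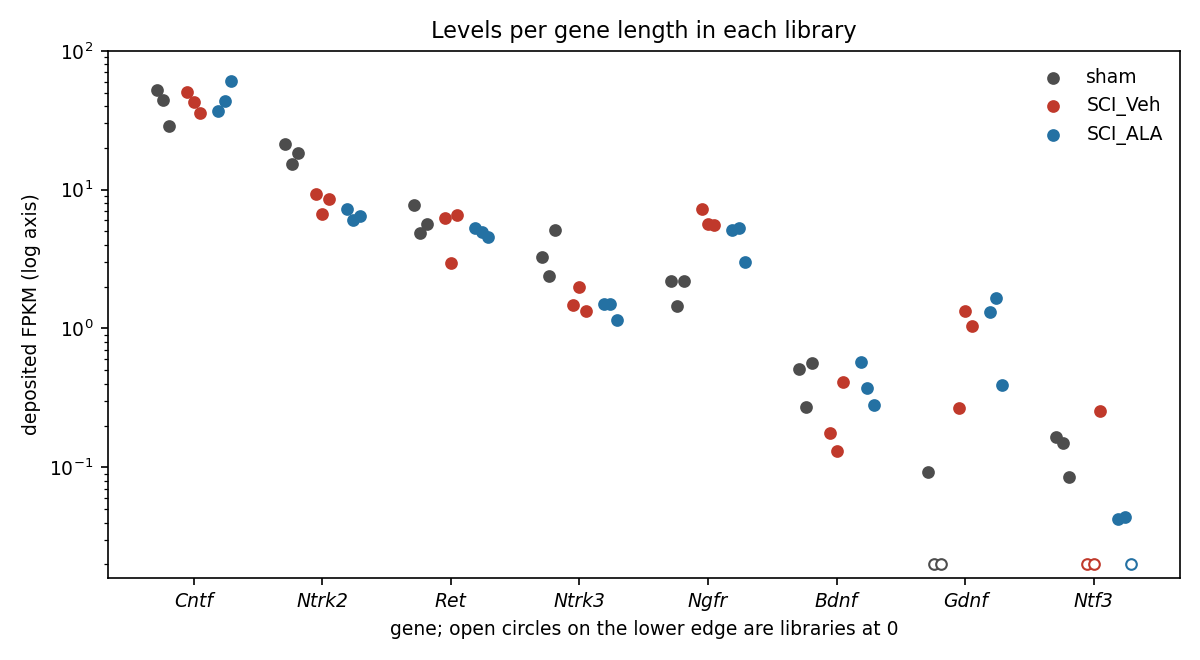
Deposited FPKM (y axis, log scale) of the 8 genes in each of the 9 libraries, coloured by group; open circles on the lower edge are libraries listed at 0. Ngfr and Gdnf move up past Ntrk3 and Bdnf in the injured groups, while Cntf keeps the highest level per gene length. The order of Gdnf and Bdnf rests on annotated lengths of 700 and 6068 bases, and Bdnf had more summed counts in each injured group.

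Between the injured groups, which differ in alpha-lipoic acid, 0 of the 7 genes were called by edgeR's quasi-likelihood test, where 0.12% of all genes were called, 0.0779% as higher and 0.042% as lower. At an unadjusted p below 0.05 the count was also 0, against 12.3% of all genes tested, and DESeq2 called 0. The intervals bound what could have been missed. For Ngfr, the 1 gene of the 7 whose SCI_ALA and SCI_Veh libraries did not overlap (23.8% of all genes tested did not), the log2 fold change was -0.47 (SE 0.26, adjusted p = 0.486) and the 95% interval of the fold was 0.487 to 1.07. Without SCI_ALA 3 it was -0.25. For Ntrk2 the log2 fold change was -0.32 (SE 0.17, adjusted p = 0.483, interval of the fold 0.616 to 1.04).

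Ntrk2 is the longest gene of the 8, at 10685 bases in the deposited annotation. SCI_ALA 2 and SCI_ALA 3 had lower counts on long genes (Spearman correlation with length across genes -0.285 and -0.460). The correlation was 0.033 in SCI_ALA 1, 0.052 to 0.118 in SCI_Veh and -0.188 to 0.342 in sham. With each library's trend with gene length removed, the Ntrk2 value between the injured groups was -0.05 (adjusted p = 0.944), and it was -1.24 in SCI_Veh and -1.29 in SCI_ALA against sham. The part of gene length in the Ntrk2 value between the injured groups was not tested. The other intervals of the fold in SCI_ALA against SCI_Veh were 0.535 to 1.39 for Ntrk3, 0.609 to 1.40 for Ret, 0.746 to 1.56 for Cntf and 0.766 to 3.74 for Bdnf. Gdnf was the widest, at 0.37 to 4.42. A p above the threshold does not show that these genes were equal in the 2 groups.

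**Figure D3:**
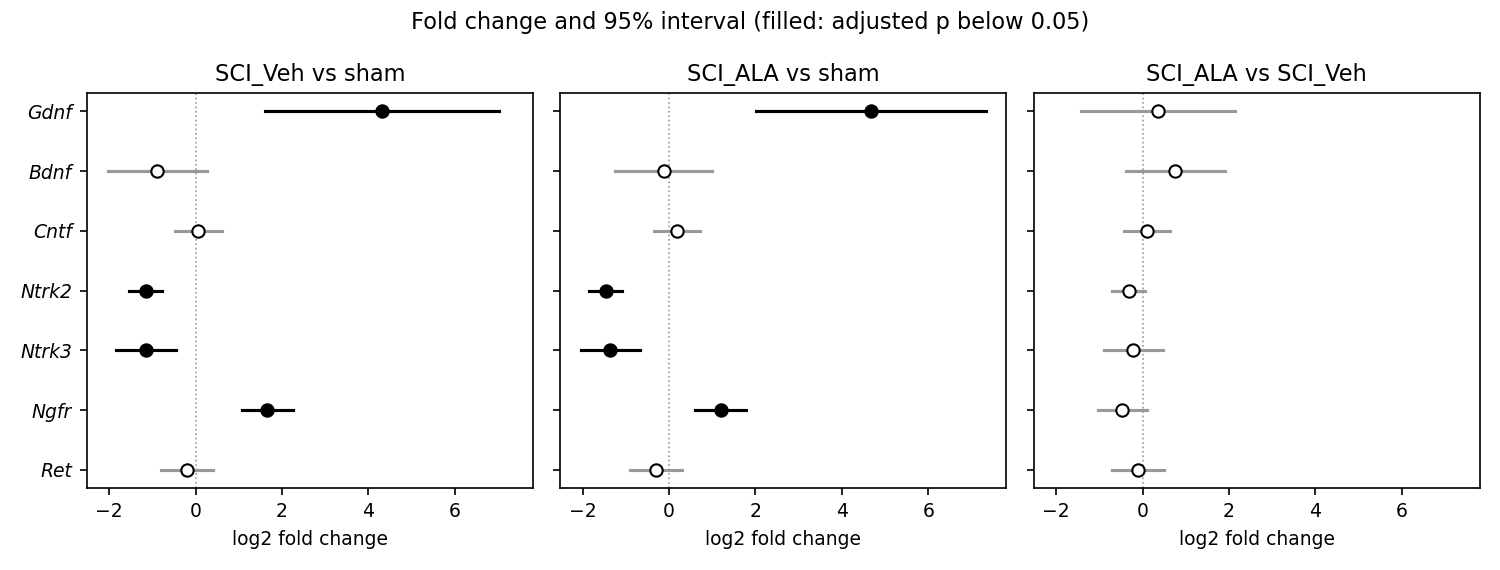
Fitted log2 fold change (x axis) with its 95% interval for the 7 tested genes in the 3 comparisons; filled points have an adjusted p below 0.05. Against sham, Gdnf and Ngfr lie to the right of 0 and Ntrk2 and Ntrk3 to the left, and between the injured groups all intervals cover 0; the fitted size for Gdnf depends on the prior count, since sham held 1 count.

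The remaining ligands of these pathways split into those that rose and those that did not pass. Of 9 listed, 7 were tested, and 4 rose and 0 fell in SCI_Veh against sham, beside 19.5% higher and 18.5% lower over all genes. Each of the 4 reached the minimum of the count filter in fewer than 3 sham libraries, so it passed only with injured libraries, and these counts are a description. Gdf15, a stress-induced cytokine that signals through GFRAL and RET, rose 17.1-fold in SCI_Veh (log2 fold change 4.10, 4.94 without sham 1) and by a log2 fold change of 3.66 in SCI_ALA (4.50 without sham 1). Clcf1, a second ligand of the CNTF receptor, rose by 2.61 in SCI_Veh and 3.23 in SCI_ALA on the log2 scale (3.61 and 4.22 without sham 3). Lif, which shares LIFR and gp130 with CNTF, rose by 2.51 (adjusted p = 0.0250) and 2.33 (adjusted p = 0.0381). Without sham 1 these values for Lif were 3.36 and 3.18. The Lif call in SCI_Veh was lost without sham 3 or any 1 SCI_Veh library, with adjusted p of 0.0514 to 0.0610. In SCI_ALA it was lost without those same libraries or without SCI_ALA 2 (log2 fold change 1.61) or SCI_ALA 3, with adjusted p of 0.0513 to 0.184. In SCI_ALA 4 of the 7 rose and 1 fell, beside 17.3% higher and 15.8% lower over all genes. Without SCI_ALA 2 or without SCI_ALA 3 the count was 3 higher and 0 lower.

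Of 17 listed receptors and coreceptors, 16 were tested, and 0 rose and 6 fell in SCI_Veh against sham (median log2 fold change -0.80), where 38% of all genes were called, 18.5% as lower. In SCI_ALA 0 rose and 9 fell (median -0.93, with 15.8% of all genes lower), and 5 fell without sham 1 or without SCI_ALA 3. Cntfr, the receptor subunit specific for CNTF, had a CPM of 42.9 to 45.2 in sham, 13.8 to 19.8 in SCI_Veh and 17.0 to 18.7 in SCI_ALA. It was 2.54-fold lower in SCI_Veh than in sham (log2 fold change -1.34, SE 0.17, adjusted p = 0.000111). SCI_Veh and sham did not overlap, as was so for 49.7% of all genes tested. Gfra2, the coreceptor for neurturin, was 2.83-fold lower in SCI_Veh (log2 fold change -1.50, adjusted p = 0.00148) and fell by 1.60 on the log2 scale in SCI_ALA. Ncam1, an adhesion molecule that can bind GDNF with GFRA1, fell by 1.03 and 1.69 on the log2 scale. Tnfrsf19, which like p75 belongs to the TNF receptor family, fell by 0.73 in SCI_Veh (adjusted p = 0.0118), a call lost without SCI_Veh 2 and without SCI_Veh 3, and by 1.32 in SCI_ALA.

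**Figure D4:**
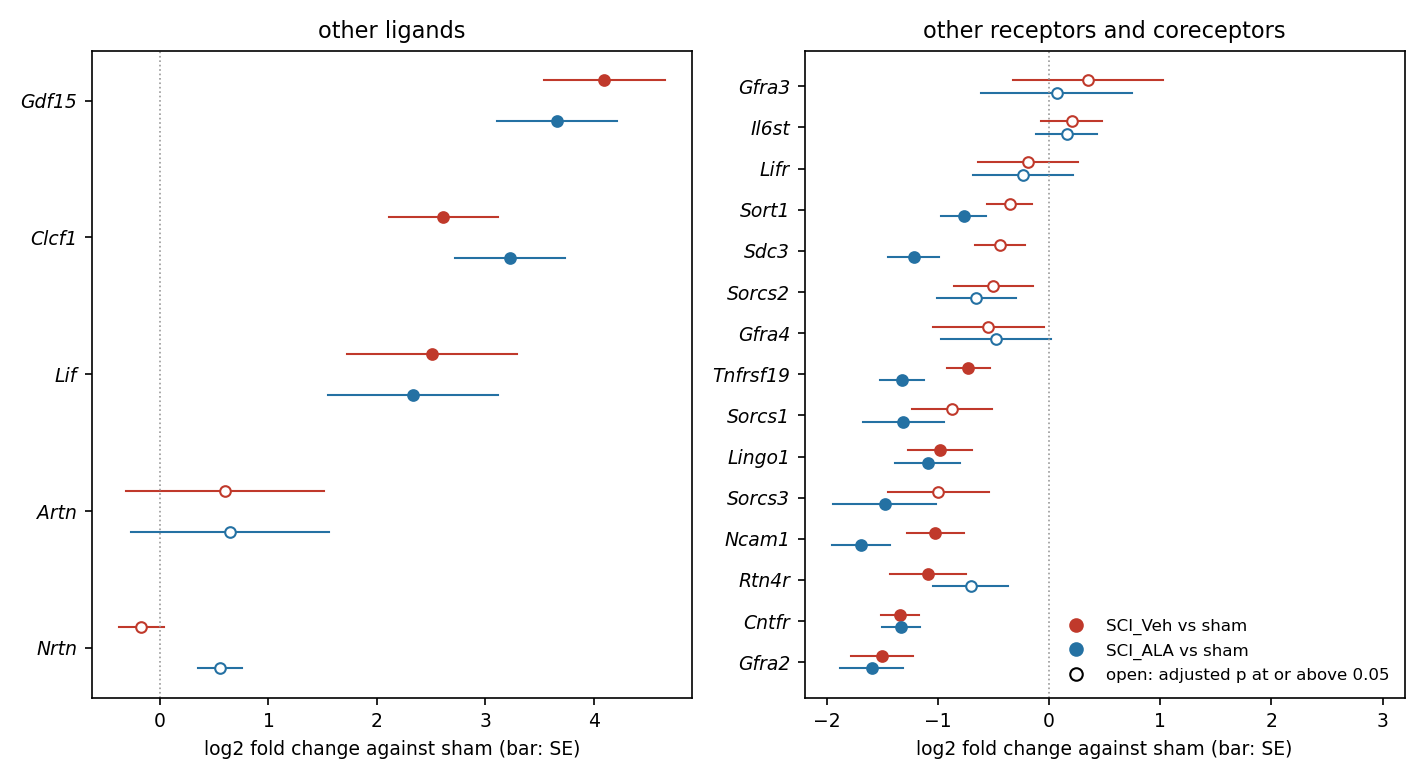
Fitted log2 fold change against sham (x axis) with its SE for 5 other ligands (left) and 15 other receptors and coreceptors (right), SCI_Veh in red and SCI_ALA in blue; filled points have an adjusted p below 0.05. Filled points among the ligands drawn lie to the right of 0, and all filled points among the receptors lie to the left.

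Genes that cut and release neurotrophins changed in both directions. Of 13 tested, 3 rose and 5 fell in SCI_Veh against sham (median log2 fold change -0.73), and 3 rose and 5 fell in SCI_ALA (median 0.18). Over all genes, 19.5% were called higher and 18.5% lower in SCI_Veh, and 17.3% and 15.8% in SCI_ALA. Furin cleaves neurotrophin precursors in the secretory pathway. Its CPM was 15.4 to 22.4 in sham, 92.2 to 102 in SCI_Veh and 45.7 to 60.3 in SCI_ALA, ranges that did not overlap. Of all genes tested, 49.7% did not overlap in SCI_Veh against sham, 45.7% in SCI_ALA against sham and 23.8% between the injured groups. Against sham Furin was 4.80-fold higher in SCI_Veh (log2 fold change 2.26, adjusted p = 5.15e-06) and rose by 1.43 on the log2 scale in SCI_ALA. Between the injured groups its log2 fold change was -0.83 and was not called (adjusted p = 0.108). Furin was called lower in SCI_ALA than in SCI_Veh with only the 2 groups compared (adjusted p = 0.0374), with DESeq2 (adjusted p = 0.00388) and without sham 2 (adjusted p = 0.0342), and adjusted p over all alternatives ran from 0.00388 to 0.400. Mmp3, a secreted protease that can cut proneurotrophins, rose by 3.43 and 3.91 on the log2 scale. Mmp3 and Mmp7, both among the 3 that rose, reached the filter minimum in 0 sham libraries and were tested only through the injured groups. Pcsk2, a convertase of neurons and endocrine cells, was 4.91-fold lower in SCI_Veh (log2 fold change -2.29) and fell by 1.82 in SCI_ALA. Cadps2, which promotes dense-core vesicle release, fell by 1.49 and 1.07, and Hap1, which takes part in BDNF transport, fell by 1.23 and 1.08.

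Of 21 adaptor and signalling genes tested, 4 rose and 5 fell in SCI_Veh against sham (median log2 fold change 0.00), near the shares of all genes, 19.5% higher and 18.5% lower. In SCI_ALA 3 rose and 6 fell (median 0.11), and without SCI_ALA 2 the count was 2 and 2. Over all genes 17.3% were called higher and 15.8% lower in SCI_ALA. Shc1, the adaptor that couples Trk and RET to the Ras pathway in many tissues, had a CPM of 32.9 to 46.2 in sham, 114 to 159 in SCI_Veh and 111 to 115 in SCI_ALA. Against sham it was 3.36-fold higher in SCI_Veh (log2 fold change 1.75, adjusted p = 2.02e-05) and rose by 1.49 in SCI_ALA. Frs3, a docking protein for Trk kinases, fell by 0.96 in SCI_Veh and 0.78 in SCI_ALA, the latter a call lost without SCI_ALA 2.

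Among genes that neurotrophins and neuronal activity induce, those called had risen. Of 9 tested, 5 rose and 0 fell in SCI_Veh (median log2 fold change 1.50) and in SCI_ALA (median 1.22) against sham. Over all genes tested, 19.5% and 17.3% were called higher. Egr2, 1 of the 5, reached the filter minimum in 2 sham libraries and was tested only with injured ones. The 4 not called were Arc, Nptx2, Homer1 and Spry2. Vgf, a secreted peptide precursor, was 6.54-fold higher in SCI_Veh (log2 fold change 2.71, adjusted p = 9.28e-05) and rose by 2.65 in SCI_ALA. Its CPM was 4.99 to 12.5 in sham and 41.3 to 63.9 in the injured libraries. Egr1, an immediate-early transcription factor, rose by 1.54 and 2.02, and Dusp6, a phosphatase that limits ERK signalling, by 1.50 and 1.53. Other stimuli also induce these genes. In SCI_ALA against SCI_Veh, edgeR's quasi-likelihood test called 0 genes in each of the 5 lists of pathway genes, and DESeq2 called 1 adaptor as higher and 1 processing gene, Furin, as lower. At an unadjusted p below 0.05 there were 1 other ligand, 3 receptors, 3 adaptors, 1 processing gene and 1 induced gene, beside 12.3% of all genes tested.

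Markers of some cell types moved with these results, and those of others changed little. In SCI_Veh against sham, 8 of 11 neuronal, 9 of 10 astrocyte and 6 of 8 mature oligodendrocyte markers fell and none of them rose, and 10 of 10 macrophage and microglia markers rose. Over all genes tested, 19.5% were called higher and 18.5% lower in SCI_Veh, and 17.3% and 15.8% in SCI_ALA. In SCI_ALA against sham 8 neuronal, 9 astrocyte (median log2 fold change -1.52) and 6 oligodendrocyte markers fell and none rose, and 8 macrophage and microglia markers rose. The summed CPM of the neuronal markers was 4115 to 6229 in sham, 1659 to 2558 in SCI_Veh and 2308 to 3039 in SCI_ALA. For astrocyte markers it was 8639 to 11485, 5986 to 8477 and 9233 to 9665, and for oligodendrocyte markers 46741 to 83942, 19207 to 32228 and 23770 to 33316. For macrophage and microglia markers it was 828 to 856, 5646 to 6632 and 4015 to 5466. None of these 4 lists had a marker at 0 in any group. Among 11 Schwann cell markers, of interest because Schwann cells carry p75, 1 rose (Egr2) and 4 fell in SCI_Veh against sham. Egr2 is also among the induced genes above, reached the filter minimum in 2 sham libraries and was tested only with injured ones. Whether the listed markers are particular to Schwann cells in spinal cord was not tested. The sum of the Schwann cell markers was 1015 to 2076, 660 to 895 and 675 to 731. Without sham 1, SCI_Veh 1, SCI_Veh 3 or SCI_ALA 1, 2 of them fell. Of 6 motor neuron markers tested, 1 rose and 3 fell in SCI_Veh, and 1 rose and 4 fell in SCI_ALA, where 1 to 3 in all were called without sham 3 or any 1 SCI_ALA library. Their summed CPM was 127 to 214 in sham, 120 to 173 in SCI_Veh and 129 to 152 in SCI_ALA. Of 5 T cell markers tested, 1 rose in SCI_Veh against sham, a call lost without sham 1 or SCI_Veh 2. All 5 rose in SCI_ALA against sham, with 1 to 3 called without any 1 sham or SCI_ALA library. Between the injured groups 0 of the 5 were called. The sum of the T cell markers was 30.7 to 44.4, 53.0 to 92.0 and 62.4 to 71.5. In SCI_Veh against sham 0 of 6 oligodendrocyte precursor markers were called, and 1 of 9 fibroblast markers rose. Of 6 endothelial markers tested 1 rose and 1 fell. Of 10 sensory ganglion neuron markers 6 were tested, and 1 rose and 2 fell. Scn11a and Mrgprd of that list had no count in SCI_Veh. Whether the markers tested are particular to ganglion neurons in spinal cord was not tested. In SCI_ALA 1 precursor marker fell, 0 fibroblast markers were called, 1 endothelial marker rose and 1 fell, and 1 sensory marker fell. Each of these small counts changed under some alternatives. The part of all these markers in the results for Ntrk2, Ntrk3, Ngfr, Gdnf and the pathway lists was not tested.

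Genes whose log2 CPM followed a receptor or ligand most closely over the 9 libraries were named for the 5 genes with a mean of at least 50 counts, among 12577 genes compared. For Ntrk2 they were Rab5b, Cntn1 and Slc22a17 (Pearson's r 0.989, 0.987 and 0.987), and for Ntrk3 Fam210a, Fam184a and Fam120b (0.982, 0.979 and 0.970). For Ngfr they were Fanca, Kpnb1 and Chtf18 (0.988, 0.982 and 0.978). Cntf was followed by Pqbp1, Rnaseh2a and AABR07044273.1 (0.970, 0.914 and 0.908), and Ret, with the weakest likeness of the 5, by Nmt2, Fhdc1 and LOC102555635 (0.895, 0.893 and 0.891). These values describe 9 libraries that share the step from sham to injury and the differences in depth and gene length trend, and they carry no test.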

How the data were processed

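RNA sequencing of 9 rat spinal cord libraries was analysed, grouped by the group names in the sample titles. RNA was extracted with Trizol and libraries were made with the NEBNext Ultra RNA kit, per the labels' protocols. Raw counts per gene and FPKM of the same genes were deposited by the authors. HISAT2 2.0.5, featureCounts 1.5.0-p3, DESeq2 1.20.0 and the build Rnor_6.0 are named in the submitters' processing notes. The annotation release, strand setting and any filter are not given in the sources used here, and without strand a gene and an antisense partner cannot be told apart. No pair of libraries in a group was identical (chi-square per degree of freedom 19.1 to 69.3).

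Counts were filtered with filterByExpr (minimum count 10, minimum total 15), scaled with TMM and fitted over all 9 libraries with edgeR 4.0.16 (glmQLFit with robust estimates, glmQLFTest; R 4.3.3, limma 3.58.1). The SE is the absolute log2 fold change divided by the square root of F, and the 95% intervals use the test's total degrees of freedom. The procedure was checked on simulated data. FPKM as deposited served for levels between genes. For genes with few counts, ratios with exact binomial intervals (95%) on summed counts were used. Depth was 13857771 to 15736132 counts a library.

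Named genes were the 9 genes themselves, up to 4 called genes per list and comparison by smallest p, and the 3 genes most correlated with each gene of at least 50 counts on average. The genes and the lists of pathway genes and cell type markers were chosen with earlier results of these data known. Alternatives were RLE factors, library totals, mitochondrial and hemoglobin genes left out, no filter, at least 50 counts in 3 libraries, only the 2 groups compared, a replicate block, robust=FALSE, each library left out, sham 2 and SCI_ALA 3 left out together, removal of the gene length trend (loess, span 0.5), DESeq2 1.42.0, and limma on log2 FPKM with pseudocounts of 1 and 0.1. Promoter windows came from RefSeq (GRCr8). Python 3.11.15 with matplotlib 3.10.9 drew the figures. Some listed genes are not reported here singly or drawn, but they stay in the counts and medians of their lists.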

Additional observations from a re-analysis of the deposited data

How the results depend on the processing

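Of 469 alternative values for the 7 tested genes over 3 comparisons, 462 kept their side of the threshold and 7 lost a call. 22 values changed sign, 0 of them of a called gene; they were of Bdnf, Cntf, Gdnf and Ret in comparisons with a log2 fold change of at most 0.35 in size. The 7 were all in SCI_Veh against sham, for Gdnf and Ntrk3. Settings under which a gene did not enter the test are not among these values. Gdnf did not enter with at least 50 counts in 3 libraries or with only the 2 groups compared. In both settings 3 genes were called in SCI_Veh and 3 in SCI_ALA against sham. Leaving out single libraries gave 2 to 4 of the 7 genes called in SCI_Veh against sham. In SCI_ALA against SCI_Veh 0 of the 7 were called under every alternative, but the count over all genes, 20, was unstable. It was 1 with library totals, 45 with no count filter, 161 with only the 2 groups compared, 0 with the replicate block, 1 with robust=FALSE and 380 with DESeq2. With limma it was 3 on log2(FPKM + 1), 0 on log2(FPKM + 0.1) and 1 with every gene kept, and 0 to 86 with a library left out. The cause was not tested, other than that these settings change the samples, the genes or the estimate of spread. Over all genes 4774 to 6949 were called in SCI_Veh and 3895 to 6130 in SCI_ALA against sham. Same-numbered libraries did not all deviate together (correlations of -0.14 to 0.37), so the numbers were not taken as pairs. Libraries numbered 1 did deviate together, with correlations of 0.297, 0.375 and 0.225, while those numbered 2 or 3 gave -0.14 to 0.05. Differently numbered libraries gave values from -0.369 (sham 2 with SCI_ALA 1) to 0.322 (sham 2 with SCI_ALA 3). The replicate block left the calls of the 7 genes as they were (4, 0 and 4). Depth limits Ntf3, Gdnf and Bdnf, with 17, 64 and 298 counts in all.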

Other observations

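An unannotated transcript in the deposited table lies 78 bases past the 3′ end of Ntrk2 and is listed on the opposite strand. Its counts were 153, 113 and 227 in sham, 66, 46 and 59 in SCI_Veh, and 68, 64 and 86 in SCI_ALA. All injured libraries lay below all sham libraries, as they did for Ntrk2. The log2 fold change was -1.59 (SE 0.29, adjusted p = 0.0013 by edgeR's quasi-likelihood test) in SCI_Veh and -1.19 (adjusted p = 0.0080) in SCI_ALA against sham. It was singled out after its values were seen, and whether its reads come from Ntrk2 transcripts that extend past the annotated end was not tested.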
